A study of Schizosaccharomyces pombe with 6 samples.

Results

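The comparison described here is that of fission yeast (*Schizosaccharomyces pombe*) lacking *cwf12* against WT cells, in all genes of the deposited count table that passed a filter on low counts: 6018 of the 7268 identifiers in the table were tested. RNA was sequenced from 2 cultures of *Δcwf12* and 2 of WT (strain 972), and 2 cultures labelled *Δsaf5* entered the same fit. All cultures were untreated, kept at 30 °C in the rich medium YE5S, and harvested at an OD600 of 0.5. The labels give the *Δcwf12* genotype only as the gene name, so its selection marker, mating type and number of independent clones are not known from them. In the libraries labelled *Δsaf5* the reads on *saf5* did not disappear (220 and 249 counts, against 323 and 234 in WT), so these libraries are called by their label. The methods describe the cultures of a strain as biological duplicates. The p values below weigh each difference against the variation between duplicate cultures, estimated jointly from all 6 libraries.

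Cwf12 is a subunit of the Prp19 complex, the assembly that joins the spliceosome as it becomes active and holds the U6 snRNA in place for the first step of splicing. Its budding yeast counterpart is Isy1. In fission yeast many genes carry several short introns, centromeric and subtelomeric repeats are kept in heterochromatin, and a large number of noncoding RNAs, often antisense to coding genes, are kept at low levels by RNA degradation.

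The deleted gene was examined first. *cwf12* had 41 and 32 counts in *Δcwf12* and 534 and 577 in the libraries labelled *Δsaf5*, against 556 and 531 in WT. The *Δcwf12* libraries lay far below the rest, which is what their label states, with a log2 fold change of -4.08 (SE 0.14, adjusted p = 1.0e-09 in edgeR's quasi-likelihood test). The neighbours on chromosome II were counted in all libraries. *gtb1*, encoding gamma-tubulin and overlapping *cwf12* on the other strand, had a log2 fold change of -0.26, and *pch1*, a cyclin of the elongation kinase P-TEFb, of -0.41, neither reaching the 2-fold minimum used here. The reads that remained on *cwf12* were not assigned to a part of the gene.

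Library totals ran from 9113139 to 12054198 counts, and the 2 cultures of a strain correlated with r of 0.9954 to 0.9982 on the log2 CPM scale (CPM, the counts scaled to library size), a description across genes. The duplicates of *Δcwf12* differed least and those of WT most: the chi-square of their counts per degree of freedom was 1.94 in *Δcwf12* and 20.7 in WT. Calls below needed an adjusted p under 0.05 and also a difference of at least 1 on the log2 scale, in either direction. By this rule 440 genes, 7.31% of those tested, were higher in *Δcwf12*, and 159, or 2.64%, were lower. Without the fold minimum 1532 genes (25.5%) were higher and 1502 (25%) lower, of which 1092 and 1343 changed by less than 2-fold, so that the smaller changes were more often decreases and those past 2-fold mostly increases. At least 4-fold, 92 genes were higher and 38 lower, and at least 8-fold, 24 and 17. In all 599 called genes the *Δcwf12* libraries did not overlap with the WT libraries, which also held for 75.7% of all genes tested. The median log2 fold change over all genes was -0.0049.

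**Figure D1:**
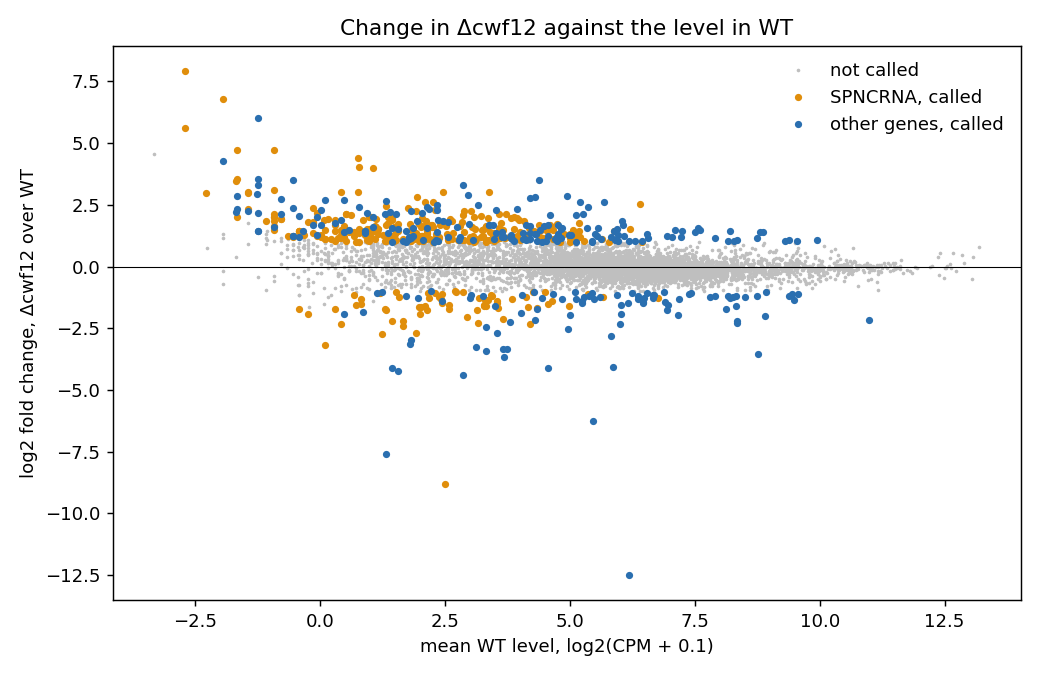
Each point is a gene tested. The x axis is the mean WT level on the log2(CPM + 0.1) scale and the y axis is the log2 fold change of *Δcwf12* over WT. Called noncoding genes (orange) lie mostly at the low WT levels on the left, above 0, and called genes of other classes (blue) extend across the whole range.

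Noncoding RNAs made up most of the increases. Of the 1021 SPNCRNA identifiers tested (1535 are in the table), 264 were higher and 66 lower, 25.9% and 6.46%, with a median log2 fold change of 0.51. Of the 4950 protein-coding genes tested, 164 were higher and 88 lower, 3.31% and 1.78%, with a median of -0.04.  Of the SPNCRNA genes, 742 overlap a coding gene on the other strand in the ASM294v3 annotation. In this antisense class 214 were higher (28.8%) and 34 lower, with a median log2 fold change of 0.56. Among the 269 with no such overlap 48 were higher (17.8%) and 32 lower (11.9%), with a median of 0.27. Among the 210 coding partners of SPNCRNA genes that were higher, 14 were higher (6.67%) and 7 lower (3.33%), with a median of 0.02. Both shares were above the 3.31% and 1.78% of all coding genes. At any size 30.5% of the partners were higher and 25.2% lower, against 21.6% and 28% of all coding genes. As the strand setting used for counting is not given in the sources used here, reads from a gene and its antisense partner cannot be told apart with certainty.

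The largest noncoding increases were on transcripts of the centromeres and on transcripts that were close to silent in WT. SPNCRNA.373, annotated as a centromeric lncRNA on chromosome II, had 179 and 160 counts in *Δcwf12*, against 0 and 1 in WT. SPNCRNA.234, from the centromere of chromosome I, had 233 and 177 counts in *Δcwf12*, against 2 and 1 in WT. SPNCRNA.231, also on chromosome I, had 37 and 32, against 0 and 1. For all 3 the strains were far apart, with log2 fold changes of 7.92 (SE 0.44, adjusted p = 3.5e-08, edgeR), 6.80 (SE 0.36, adjusted p = 2.1e-08) and 5.63 (SE 0.64, adjusted p = 1.6e-05), in that order. The ratios of the summed counts rest on few WT reads and carry wide counting intervals: 298 (95% interval 53.2 to 11817) for SPNCRNA.373, 120 (40.9 to 586) for SPNCRNA.234 and 60.7 (10.5 to 2433) for SPNCRNA.231. Of 22 centromeric lncRNAs in the table only 4 passed the filter. The 3 described above did so through the mutant libraries and not through WT, so that their direction was largely fixed by the filter, and the other 18 had 0 to 9 counts in every library. SPNCRNA.359, the remaining member tested, had 36 and 40 counts in *Δcwf12*, against 7 and 11 in WT (log2 fold change 1.88, called higher). This group was chosen after the values were seen.

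Some of these transcripts are repeated in the genome, which bears on how reads were assigned to them. SPNCRNA.231 and SPNCRNA.373 align over 952 nucleotides at 96.8% identity, and at 95% identity over 95% of their length SPNCRNA.231, SPNCRNA.234 and SPNCRNA.373 each occur 6 times in the ASM294v3 genome, whereas SPNCRNA.359 occurs 1 time. A stretch of 120 bases that differs at 2 places is shown for SPNCRNA.231 (chrI:3761069-3761188, plus strand) and SPNCRNA.373 (chrII:1640638-1640757, plus strand), with the differing bases in capitals.

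SPNCRNA.231: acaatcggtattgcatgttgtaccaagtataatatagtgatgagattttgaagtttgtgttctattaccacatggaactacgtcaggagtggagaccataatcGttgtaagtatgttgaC

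SPNCRNA.373: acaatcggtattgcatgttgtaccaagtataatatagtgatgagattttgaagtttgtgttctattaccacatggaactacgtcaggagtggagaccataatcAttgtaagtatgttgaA

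A read inside the lower-case stretch fits both transcripts, and how the authors' counting treated such reads is not given in the sources used here. The value of any single repeated copy is therefore uncertain.

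The other large noncoding increases were SPNCRNA.1255, with 70 and 57 counts in *Δcwf12* against 3 and 1 in WT (log2 fold change 4.72), and *prl15*, a polyadenylated RNA antisense to SPBC27B12.05, with 130 and 114 against 5 and 3 (4.71). The WT counts of both were too low to pass the filter, so that their direction was largely fixed by the filter. SPNCRNA.1344 is antisense to SPBC1271.08c and had 364 and 308 counts in *Δcwf12*, against 16 and 21 in WT (3.99, adjusted p = 1.0e-08, edgeR). In this place the coding genes moved too. SPBC1271.08c, of unknown function, had 873 and 754 counts in *Δcwf12*, against 141 and 144 in WT, and the next gene SPBC1271.07c, an N-acetyltransferase, had 2546 and 2185, against 231 and 342. *tgp1*, the glycerophosphodiester transporter next to them, had 247 and 192 counts in *Δcwf12*, against 101 and 99 in WT, a log2 fold change of 0.95 that stayed under the 2-fold minimum.

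The largest noncoding decreases were SPNCRNA.1697, SPNCRNA.1313, SPNCRNA.1310, SPNCRNA.1463 and SPNCRNA.1455. SPNCRNA.1697, antisense to the galactokinase gene *gal1*, had 0 and 0 counts in *Δcwf12*, against 55 and 49 in WT, at least 19.6-fold lower against a floor of 3 counts per library. SPNCRNA.1310 had 5 and 7 counts in *Δcwf12*, against 36 and 33 in WT, and SPNCRNA.1463 had 6 and 6, against 31 and 26. The call of SPNCRNA.1455 was lost without *Δcwf12* replicate 1, at -1.57 (adjusted p = 0.0781, edgeR). Of these 5, SPNCRNA.1697, SPNCRNA.1310 and SPNCRNA.1313 lie within 50 coding genes of an end of chromosome II.

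Repeated genes of other classes rose as well. *tlh2*, a RecQ-type helicase gene at the end of chromosome II, had 225 and 228 counts in *Δcwf12*, against 4 and 2 in WT, a log2 fold change of 6.01 (SE 0.32, adjusted p = 2.2e-08, edgeR) and a ratio of summed counts of 66.4 (95% counting interval 30.3 to 182). The WT counts of *tlh2* were too low to pass the filter, and the gene passed it through both sets of mutant libraries. WT counts this low left little room for a decrease. Its sister *tlh1*, at an end of chromosome I, is 99.98% identical over 5662 bases, so the reads of this pair cannot be assigned to either gene with certainty. Tf2 elements, the full-length retrotransposons of the laboratory strain, matched 13 places in the genome at 95% identity. Of 13 Tf2 genes listed, 5 passed the filter and were called higher, with log2 fold changes of 2.14 to 4.27, and the other 8 had 0 to 4 counts in every library. *Tf2-4* passed only through the *Δcwf12* libraries, so its direction was largely fixed by the filter. *Tf2-11* had 289 and 237 counts in *Δcwf12*, against 30 and 63 in WT, *Tf2-10* had 284 and 190 against 43 and 40, and *Tf2-4* had 45 and 26 against 1 and 2. The *wtf* genes, a family of meiotic spore killers and their antidotes, share sequence in the same way. Of 24 tested, 6 were higher (25%) and 0 lower, against 7.31% and 2.64% over all genes, with a median log2 fold change of 0.43. Without the fold minimum 12 were higher (50%) and 1 lower (4.17%), against 25.5% and 25% over all genes. *wtf3*, annotated as a pseudogene, had 42 and 28 counts in *Δcwf12* against 3 and 3 in WT, and *wtf5* 381 and 325 against 117 and 115. For *wtf3* the WT counts were too low to pass the filter, so that its direction was largely fixed by the filter. The calls of *wtf7* and *wtf8* were lost without WT replicate 2, at 0.92 and 0.88.

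**Figure D2:**
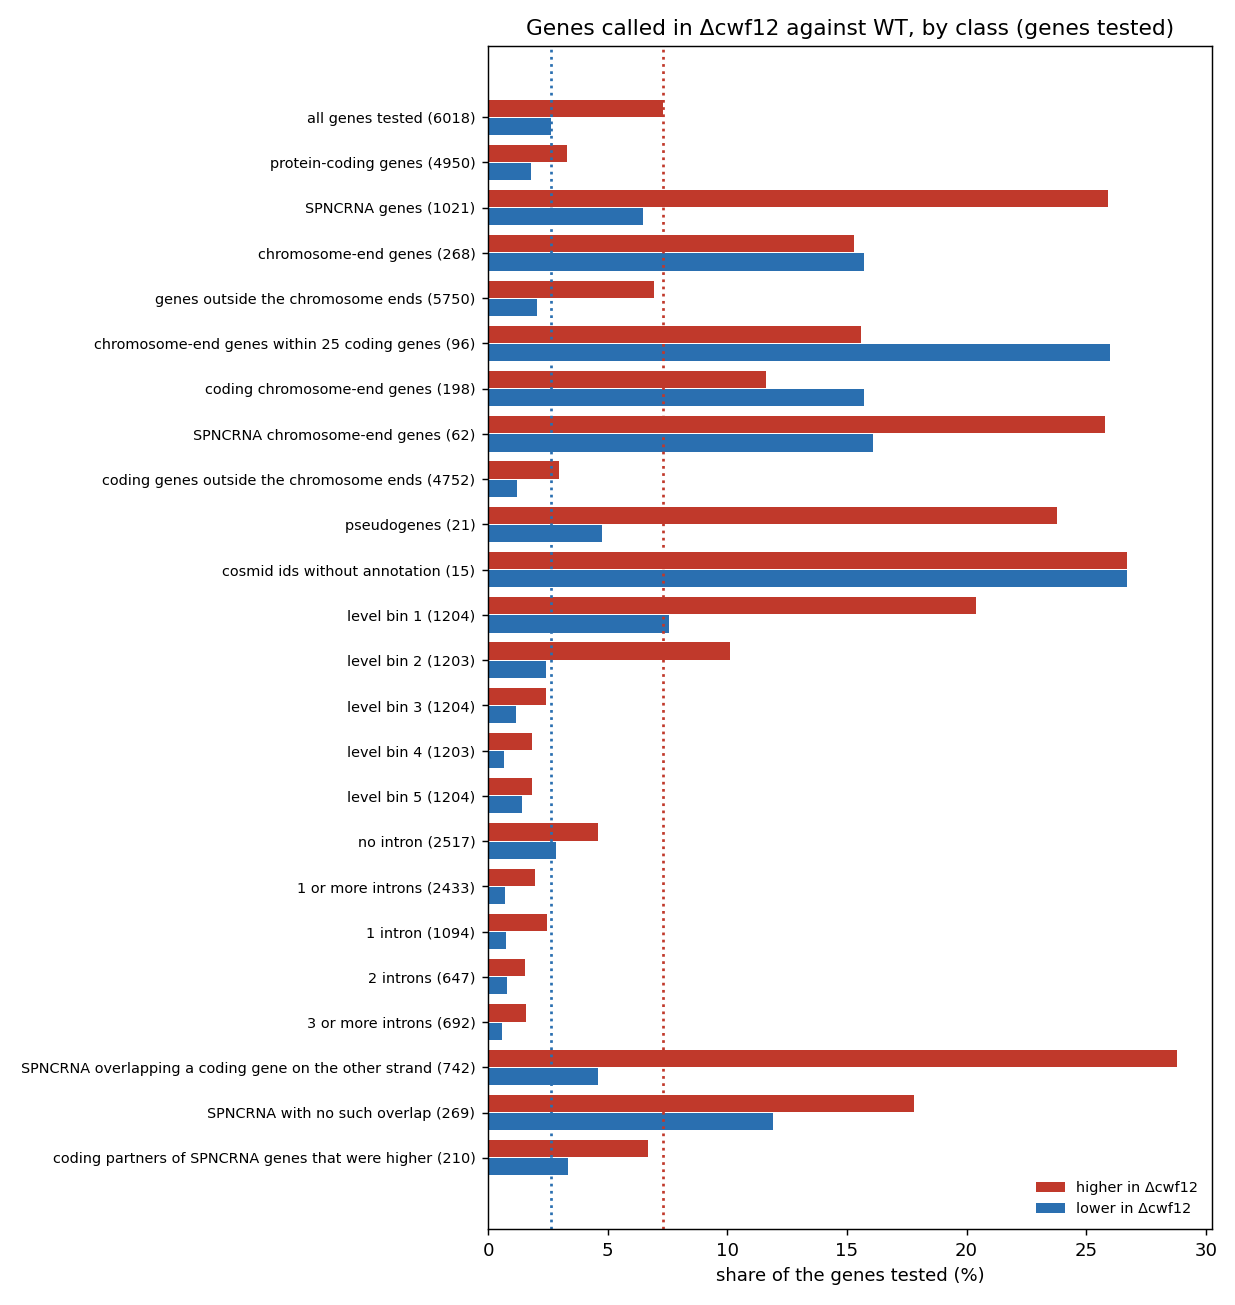
Bars give the percentage of genes tested that were called higher (red) or lower (blue) in *Δcwf12*, for each class with the number of genes tested in brackets. Dotted lines are the shares over all genes, 7.31% and 2.64%. The SPNCRNA genes reached 25.9% higher, and genes within 25 coding genes of a chromosome end 26.0% lower.

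Genes near the chromosome ends were called more often in both directions. The class holds the genes of cosmids whose coding genes all lie within 50 coding genes of an end, with the noncoding genes of the same stretch. Of 268 tested, 41 were higher (15.3%) and 42 lower (15.7%), whereas of 5750 genes outside the class 399 were higher (6.94%) and 117 lower (2.03%). Among coding genes alone 31 of 198 were lower at the ends (15.7%), against 57 of 4752 elsewhere (1.20%). The ends differed from each other. At the left end of chromosome II 16 of 33 genes were lower and 2 higher, with a median log2 fold change of -0.88, and at the left end of chromosome I 9 of 26 were lower and 4 higher. At the right end of chromosome III, which like the left end borders the ribosomal DNA, 13 genes of 62 were higher (21%) and 1 lower, and 7 of the 13 were among the 12 SPNCRNA genes tested there. At the left end of chromosome III 7 of 65 were higher (10.8%) and 2 lower (3.08%), near the shares over all genes. At the right ends of chromosomes I and II, 9 of 39 and 5 of 42 genes were higher and 6 and 8 were lower.

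**Figure D3:**
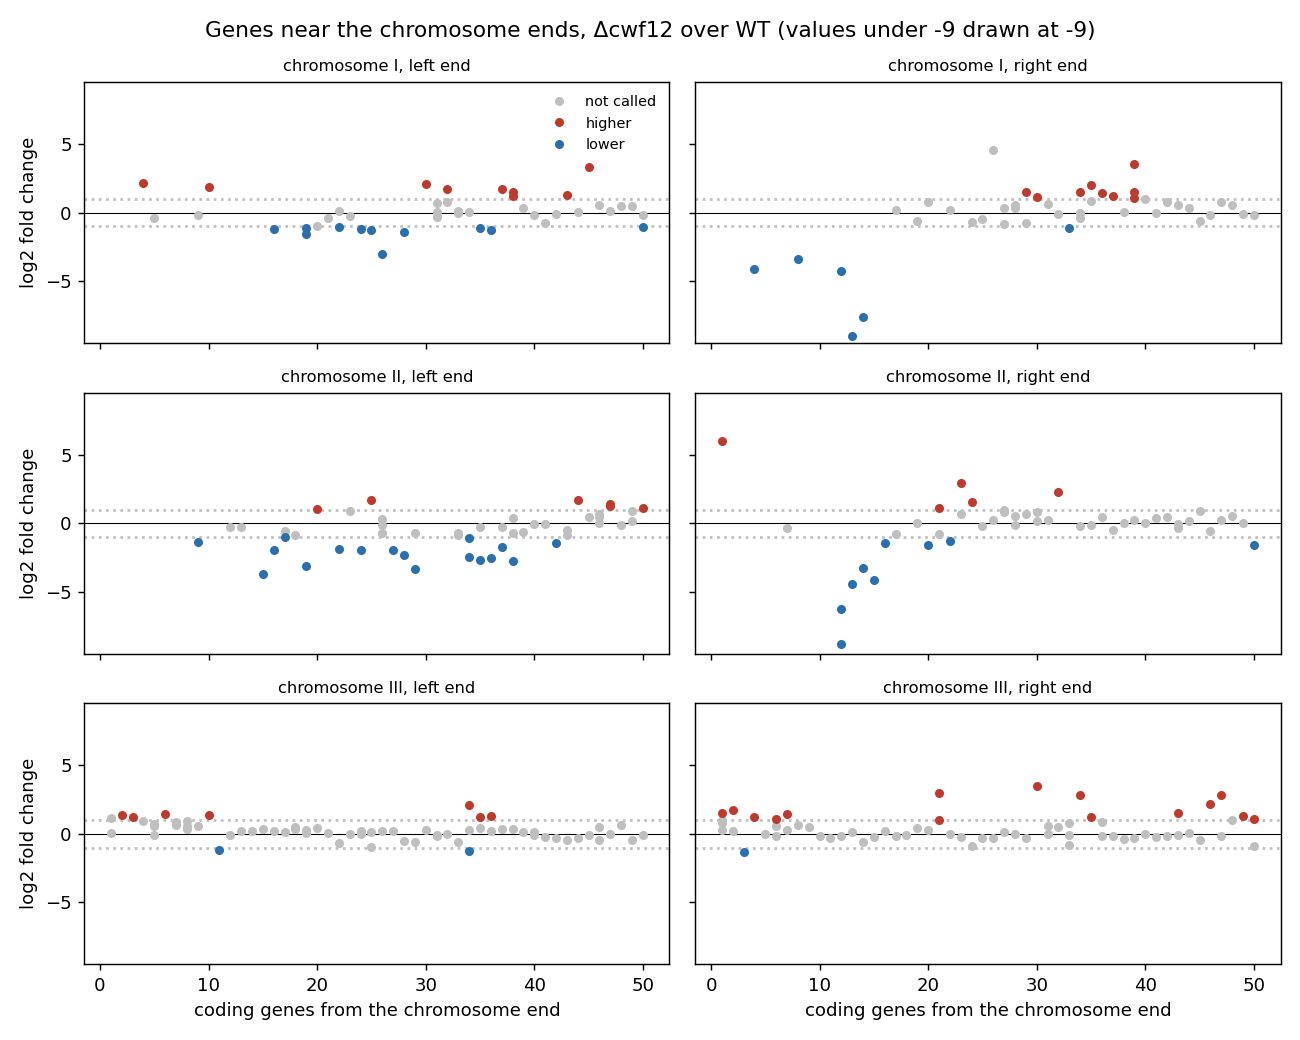
Panels show the 6 chromosome ends, with the distance from the end in coding genes on the x axis and the log2 fold change of *Δcwf12* over WT on the y axis. Genes called higher are red, lower blue and others grey. Decreases lie mostly at the ends of chromosomes I and II, and at chromosome III the called genes were mostly higher.

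Of the 15 largest coding decreases 12 lay at chromosome ends, among them 2 clusters at right ends. On chromosome I, *gdt1*, encoding a membrane protein of the GDT1 family, had 0 and 0 counts in *Δcwf12* and 6 and 3 in the libraries labelled *Δsaf5*, against 630 and 727 in WT, and was at least 255-fold lower in *Δcwf12* than in WT against the floor. Of the genes beside it, SPAC186.04c had 0 and 0 counts in *Δcwf12* and 0 and 0 in the libraries labelled *Δsaf5*, against 18 and 27 in WT. SPAC186.06 had 2 and 1 in *Δcwf12* and 0 and 1 in the libraries labelled *Δsaf5*, against 18 and 35 in WT. This cluster was therefore close to silent in both sets of mutant libraries. Its genes passed the filter only through WT, so that their direction was largely fixed by the filter. On chromosome II the galactose genes fell together. *gal1* had 9 and 3 counts in *Δcwf12*, against 314 and 508 in WT, *gal7* had 18 and 11 against 204 and 237, and *gal10* had 4 and 3 against 37 and 97. These genes encode galactokinase, the uridylyltransferase and the epimerase of galactose use, and the log2 fold changes were -6.25 (SE 0.35), -4.10 (SE 0.21) and -4.39 (SE 0.58), with adjusted p of 4.1e-08, 2.0e-08 and 5.7e-05 in edgeR's test. *tgd1*, which lies between *gal7* and *gal10*, and *pan5*, on the other side of *gal7*, were also lower, so that 5 neighbouring coding genes in a row moved the same way. The other decreases of this size at chromosome ends were *ftm4*, *grt1*, SPAC750.01, *eno102* and SPAPJ695.02. *grt1*, a transcription factor gene, had 13 and 8 counts in *Δcwf12* and 9 and 9 in the libraries labelled *Δsaf5*, against 124 and 113 in WT. *ftm4* had 0 and 3 counts in *Δcwf12* and 2 and 3 in the libraries labelled *Δsaf5*, against 22 and 27 in WT. Both genes passed the filter only through WT, so that their direction too was largely fixed by the filter. The WT libraries differed from each other in *gal10* (37 and 97), *eno102* (17 and 46) and SPAPJ695.02 (20 and 44).

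The remaining 3 of the 15 largest coding decreases lay elsewhere: *cwf12* itself, *rds1* and *mfm2*. *rds1*, a stress-responsive gene, had 424 and 370 counts in *Δcwf12*, against 3324 and 4782 in WT (log2 fold change -3.53, SE 0.14, adjusted p = 4.0e-09, edgeR). *mfm2*, which encodes a precursor of the M-factor pheromone, had 7 and 12 counts in *Δcwf12*, against 92 and 92 in WT.

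Of the 15 largest coding increases 4 lay at chromosome ends. SPCC70.08c, a methyltransferase gene on chromosome III, had 2677 and 2286 counts in *Δcwf12*, against 181 and 207 in WT, and averaged 234 ± 0.12 CPM in *Δcwf12* and 20.7 ± 1.76 CPM in WT (SD, n = 2 each; log2 fold change 3.49, SE 0.08, adjusted p = 3.9e-11, edgeR). SPAC11D3.09, an agmatinase gene, had 875 and 665 counts in *Δcwf12* against 44 and 91 in WT (3.32), and SPAC11D3.18c, a carboxylic acid transporter gene of the same cosmid, 643 and 556 against 65 and 78 (2.88). *ecl1*, which extends chronological lifespan in this yeast when overexpressed, had 1471 and 1215 counts in *Δcwf12* against 157 and 183 in WT (2.80). SPBC1271.07c has been described above. *spn5*, a meiotic septin, had 171 and 149 against 20 and 25 (2.64), and SPBC23G7.13c, a urea transporter gene, 83 and 61 against 3 and 8 (3.50). The other coding genes of this list were SPAC4F10.17, *fub2*, SPAPB17E12.09, *mfc1*, *ght6* and SPAC6C3.03c, with log2 fold changes from 2.71 to 3.56, and *tlh2* and *Tf2-4*. In WT, SPBC23G7.13c, SPAC4F10.17, *fub2*, SPAPB17E12.09, *ght6*, *tlh2* and *Tf2-4* were too low to pass the filter. The direction of those that passed only through *Δcwf12* was therefore largely fixed by the filter. *fub2* and *tlh2* passed through both sets of mutant libraries, and their low WT counts left little room for a decrease.

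**Figure D4:**
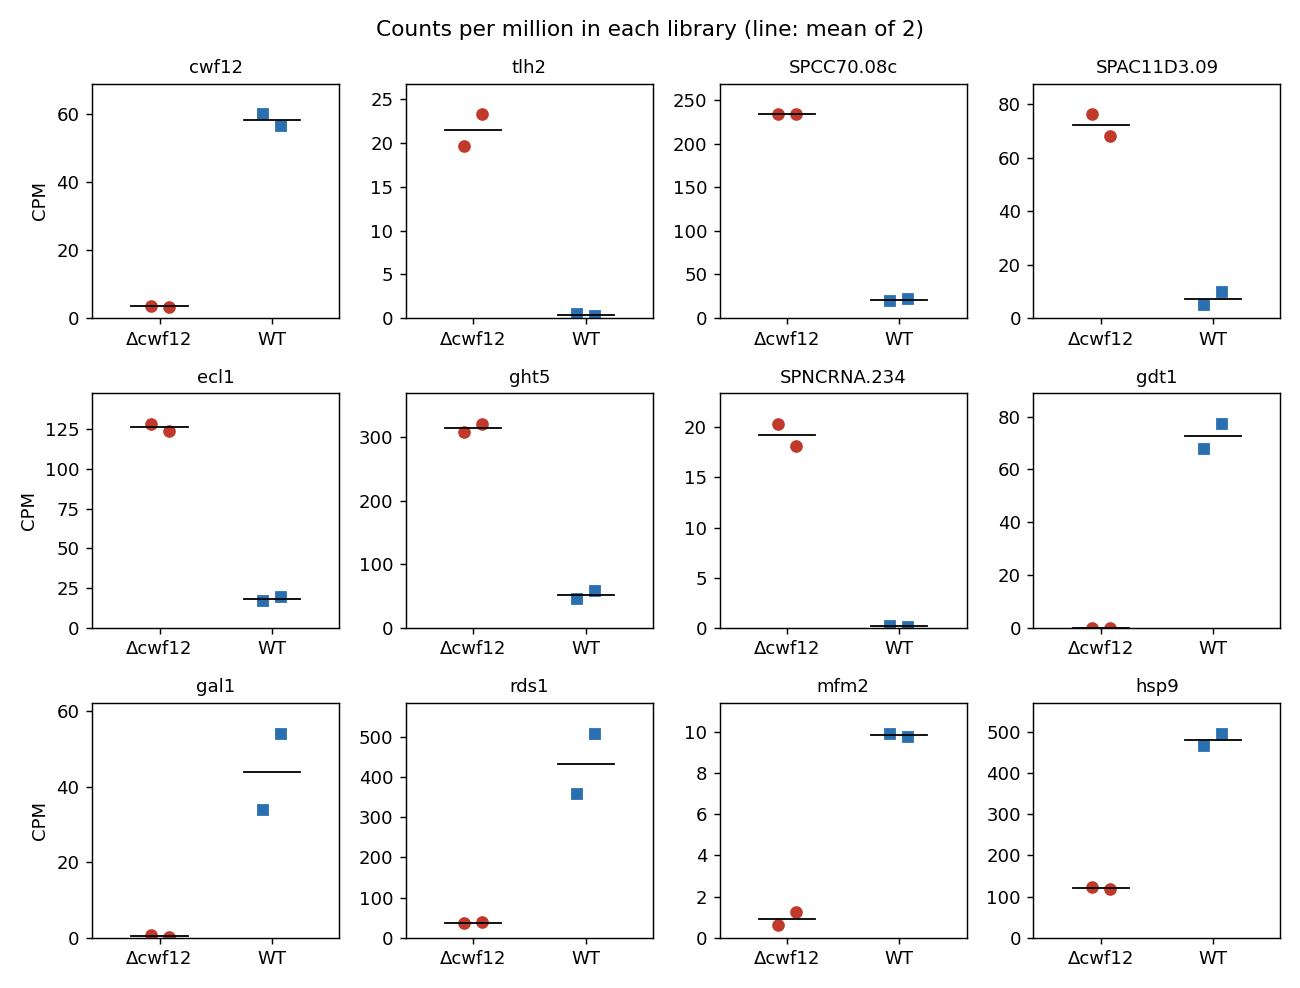
CPM (y axis, starting at 0) in the 2 libraries of *Δcwf12* (red circles) and of WT (blue squares), with lines at the means, for 12 genes. The genes were chosen from those in which the strains do not overlap. *gdt1* was at 0 in both *Δcwf12* libraries, and the WT libraries lay visibly apart in *gal1* and *rds1*.

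The share of genes called depended strongly on expression level. When genes were divided into 5 bins of equal size by mean level, 246 of 1204 genes in the lowest bin were higher (20.4%) and 91 lower, and 121 and 29 in the bin above it, whereas the 3 upper bins held 29, 22 and 22 genes that were higher and 14, 8 and 17 that were lower. The lowest bin, with a median WT level of 3.61 CPM, held 804 of the SPNCRNA genes, of which 176 were higher, but its 366 coding genes also had 60 higher and 30 lower. Grouping by WT level per kilobase, which uses the WT counts of the comparison itself, gave the same order, with 310 higher genes in the lowest bin and 15 in the highest. The error of a fold change is wider at low counts, and its part in these shares was not tested. The genes with the smallest p value among increases in the 3 upper bins were SPBC8E4.02c (1592 and 1377 counts in *Δcwf12*, against 159 and 210 in WT), SPCC70.08c and *ght5*. Among decreases they were SPBPB10D8.01, *hsr1* and *rds1*.

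Coding genes were also compared by their number of introns. Of 2517 coding genes without an intron, 116 were higher (4.61%) and 71 lower (2.82%), and of 2433 with at least 1 intron 48 were higher (1.97%) and 17 lower (0.699%). Changes of any size, past the adjusted p alone, showed a different split. Intronless genes were more often lower, 941 against 480 that were higher, with a median log2 fold change of -0.12. Genes with introns were more often higher, 587 against 446 lower, with a median of 0.01. With 3 or more introns 199 of 692 were higher and 79 lower, and the median was 0.05. Whether intronic reads entered a gene's count is not given in the sources used here, so unspliced RNA and more RNA per gene cannot be told apart from these counts. Of 17 other Prp19-complex genes and 37 further spliceosome genes, 0 were called by edgeR or by DESeq2, while 7 and 18 had an unadjusted p under 0.05 in edgeR's test. As 25.5% of all genes tested were higher and 25% lower at an adjusted p under 0.05, these counts do not set the splicing genes apart. The widest values were 0.71 for *cwf14* and -0.83 for *smg1*, an Sm core protein gene.

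Histone genes and G1/S genes were mostly lower, by less than 2-fold in most cases. For this and the following gene groups, the shares over all genes were 7.31% higher and 2.64% lower. At any size these shares were 25.5% and 25%. Of 11 histone genes 2 were lower, *hht3* and *hhf3*, encoding histones H3 and H4, and 8 were lower at any size, with a median of -0.65. *hhf3* had 2162 and 1856 counts in *Δcwf12*, against 3179 and 4835 in WT. The WT libraries differed here, and without WT replicate 2 the fold changes were -0.92 and -0.87, under the minimum, so that 0 of 11 histone genes were called; without WT replicate 1 it was 4. The MBF targets, the genes switched on for G1 to S transition, had 0 of 21 past 2-fold in edgeR and in DESeq2 (18 at an unadjusted p under 0.05), and 17 were lower at any size and 1 higher, with a median of -0.45. In bulk RNA, fewer cells in a phase of the cycle and less RNA per cell cannot be told apart.

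The genes of the stress response moved in both directions. Of 23 core stress genes tested 3 were higher (*cta3*, *gst1* and *tms1*) and 4 lower (*rds1*, *hsp9*, *tps1* and *ctt1*). *hsp9*, a membrane-associated heat shock protein, had 1408 and 1152 counts in *Δcwf12*, against 4317 and 4667 in WT (-2.0), and *tps1*, the trehalose phosphate synthase, and *ctt1*, the catalase, followed at -1.22 and -1.16. *cta3*, a calcium-transporting ATPase, had 191 and 159 counts in *Δcwf12* against 27 and 37 in WT (2.26). Genes of the Sty1 MAP kinase pathway gave 1 call among 17, the transcription factor gene *atf31* at 1.85, but 14 were lower at any size, 1 of them past 2-fold without WT replicate 1. *sty1* itself had 1878 and 1713 counts in *Δcwf12* against 2992 and 3081 in WT (-0.94, not called). Promoters, taken as the 300 bases before the annotated gene start, were searched on both strands for 4 motifs. They were the cyclic AMP response element TGACGT, which is bound by Atf1, the MluI cell-cycle box ACGCGT, the histone box AACCCT, and the sequence TGACTC. The cyclic AMP response element was in 9 of the 23 core stress promoters (39.1%), in 17 of 88 coding genes that were lower (19.3%), in 5 of 164 that were higher (3.05%) and in 297 of all 4950 coding genes tested (6.0%). Among the lower genes ACGCGT was in 0 of 88, TGACTC in 3 (3.41%) and AACCCT in 12 (13.6%), where the shares over all coding genes were 2.95%, 6.63% and 9.47%. Among the higher genes these motifs were in 8, 9 and 14 of 164 (4.88%, 5.49% and 8.54%). The promoter of *rds1* (chrI:1667439-1667738, plus strand) is shown with the match, on the opposite strand, in capitals. Of the core stress genes whose promoter held TGACGT, *rds1* had the smallest adjusted p in edgeR's test, so a match was given by the choice. A match is a description of these letters only.

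rds1: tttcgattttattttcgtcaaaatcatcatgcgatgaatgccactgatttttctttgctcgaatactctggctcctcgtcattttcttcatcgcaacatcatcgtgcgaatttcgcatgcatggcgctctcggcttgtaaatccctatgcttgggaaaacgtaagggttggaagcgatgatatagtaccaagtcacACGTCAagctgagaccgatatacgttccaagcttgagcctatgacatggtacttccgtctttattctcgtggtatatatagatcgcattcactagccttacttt

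Sugar transport and carbon use changed in several places. Of 15 hexose transporter and glucose-repressed genes 3 were higher and 3 lower, and without WT replicate 1 it was 5 that were higher. *ght5*, the high-affinity glucose transporter, had 3530 and 3132 counts in *Δcwf12* against 416 and 544 in WT (2.61, SE 0.11, adjusted p = 4.5e-09, edgeR), and *ght6* and the invertase gene *inv1* rose by log2 fold changes of 2.75 and 2.18. *mae2*, a malic enzyme gene, had 5304 and 4333 counts in *Δcwf12* against 14709 and 23483 in WT (-2.17); *ght3* and *gut2* were at -1.39 and -1.33, and the call of *ght3* was lost without *Δcwf12* replicate 1 (adjusted p = 0.0547, edgeR). Glycolysis had 1 of 18 higher (5.56%), the pyruvate decarboxylase gene *pdc202*, and 2 lower (11.1%), *gpd3* and *eno102*. Over all genes 7.31% were higher and 2.64% lower. *gpd3* had 1482 and 1147 counts in *Δcwf12* against 1836 and 3687 in WT, and without WT replicate 2 it was at -0.69 and not called. The respiratory chain and the TCA cycle had 0 of 27 called in edgeR and in DESeq2 (19 at an unadjusted p under 0.05), with 17 lower at any size.

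Genes for the synthesis of arginine, lysine and leucine were mostly higher. Of 20 tested 6 were higher and 0 lower, and at any size 17 were higher and 1 lower, with a median log2 fold change of 0.60. *arg12*, the argininosuccinate synthase, had 14053 and 10975 counts in *Δcwf12*, against 3920 and 4480 in WT (1.39, SE 0.09, adjusted p = 1.7e-07, edgeR). *arg3*, *arg7*, *arg4*, *arg5* and *lys3* lay between 1.02 and 1.16, and the 1 lower gene, *car1*, which breaks arginine down, was at -0.76. The calls of *arg4* and *arg5* were lost without WT replicate 1, at 0.99 each, and that of *lys3* without WT replicate 2, at 0.97, or *Δcwf12* replicate 1, at 0.98. Nitrogen-regulated genes were mixed: of 18 tested 2 were higher (11.1%) and 3 lower (16.7%), against 7.31% and 2.64% over all genes. Those higher were the permease gene *isp5* and the ammonium transporter gene *amt3*. Those lower were *isp4*, *mei2* and *ste11*, and without WT replicate 2 *mei2* was at -0.57 and *ste11* at -0.72. Sulphur and methionine genes had 0 of 19 called in edgeR and in DESeq2 (12 at an unadjusted p under 0.05), with a median of 0.09. At any size 3 were higher (15.8%) and 6 lower (31.6%), against 25.5% and 25% over all genes. In this list *met17*, the homocysteine synthase, was at 0.66, and *cys11* and *sul1* were at -0.50 and -0.60. Purine and pyrimidine genes had 0 of 18 called in edgeR and in DESeq2 (10 at an unadjusted p under 0.05), with 8 higher and 1 lower at any size and *ade7* at 0.65.

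Some iron genes rose, and phosphate genes gave a single call. Of 13 iron uptake genes 3 were higher (23.1%) and 0 lower, against 7.31% and 2.64% over all genes. At any size 4 were higher (30.8%) and 3 lower (23.1%), near the 25.5% and 25% over all genes. The calls were *str3*, a siderophore transporter with 1715 and 1403 counts in *Δcwf12* against 369 and 282 in WT (2.07), and the ferric reductase genes *frp1* and *frp2*. The acid phosphatase gene *pho1* had 6631 and 5405 counts in *Δcwf12* against 1252 and 2313 in WT (1.57), the 1 call among 8 phosphate genes. At any size 3 of these 8 genes were higher (37.5%) and 2 lower (25%). *vht1*, a biotin transporter gene with 24158 and 19830 counts in *Δcwf12* against 8855 and 9554 in WT, was the 1 call among 17 genes of fatty acid metabolism, of which 4 were higher and 9 lower at any size.

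Genes of meiosis moved in both directions. Of 104 *mug* and *meu* genes, named for their induction in meiosis, 17 were higher and 2 lower, 16.3% and 1.92%, against 7.31% and 2.64% over all genes, with a median of 0.14. With at least 10 counts required in every library, 9 were higher and 1 lower. The calls of 8 of the 19 were lost when a library was left out, among them *meu1*, *mug86* and *mug137* without WT replicate 1 and *mug27*, *mug28* and *mug62* without WT replicate 2. *meu13*, a meiotic pairing protein, had 50 and 45 counts in *Δcwf12* against 5 and 12 in WT, and *mug15* 137 and 114 against 32 and 15. *meu13* was the 1 call among the 15 transcripts that Mmi1 directs to degradation in vegetative cells, with 2 calls without WT replicate 1, WT replicate 2 or *Δcwf12* replicate 1. Of 10 genes of the switch into meiosis 0 were higher and 2 lower, *ste11* and *mei2*, and at any size 1 was higher and 8 lower, with a median of -0.41. *ste11* was at -1.03 and was not called without WT replicate 2 (-0.72) or *Δcwf12* replicate 1 (-0.99), and *mei2* was at -1.01 and was not called without WT replicate 2 (-0.57) or *Δcwf12* replicate 2 (-0.85). Among 16 genes of pheromone signalling the 1 call was *ste11*, and 2 were higher and 7 lower at any size. Without *Δcwf12* replicate 1 it was 0 that were lower, and without *Δcwf12* replicate 2 it was 3. Of 4 P cell markers 0 were called by edgeR or DESeq2, and 1 had an unadjusted p under 0.05. Of 6 M cell markers *mfm2* was lower and *mfm1* higher (12 and 7 counts in *Δcwf12* against 4 and 2 in WT), a call that was lost in DESeq2 and whichever library was left out. Since the mating type of the *Δcwf12* culture is not given by the labels, its part in these values was not tested.

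In 18 of the groups, with 468 entries in all, edgeR and DESeq2 called 0 genes, while 187 had an unadjusted p under 0.05. At the stricter adjusted p under 0.05, 25.5% of all genes tested were higher and 25% lower. The 187 entries, pooled over unlike groups, therefore do not set the 18 groups apart as a whole. Single groups differed. At any size 81% of the MBF targets were lower and 4.76% higher, and 63% of the respiratory chain and TCA cycle genes were lower and 3.7% higher. Beside those given above, the 18 groups included 138 genes annotated as ribosomal proteins, 24 genes of snoRNPs and rRNA synthesis, 31 proteasome genes, 18 genes annotated as tRNA ligases, 29 heterochromatin and RNAi genes, 12 shelterin and telomerase genes and 23 nuclear exosome genes. The medians of the groups named here lay between -0.16 and 0.14.

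The 15 largest coding increases and decreases were also compared directly with the libraries labelled *Δsaf5*, where 8.57% of all genes tested differed from *Δcwf12* by at least 2-fold at an adjusted p under 0.05 (edgeR). These genes were chosen by their difference between *Δcwf12* and WT, and the same *Δcwf12* counts enter this contrast. The choice itself therefore favours differences in the same direction, and the counts below describe the chosen genes only. Of the 15 increases 9 were higher in *Δcwf12* than in the libraries labelled *Δsaf5*, and *fub2* was lower, with 34 and 20 counts in *Δcwf12* against 79 and 105. *tlh2* had 225 and 228 counts in *Δcwf12* against 22 and 19 in the libraries labelled *Δsaf5*, and SPCC70.08c 2677 and 2286 against 436 and 445. *ecl1* had 1471 and 1215 counts in *Δcwf12* against 1436 and 1227, a log2 difference of -0.09 that did not pass the threshold. Of the 15 decreases 10 were lower in *Δcwf12*, and *gal1* had 9 and 3 counts against 437 and 376. These 10 include *cwf12* itself and *gdt1*, which had few reads in both (0 and 0 counts in *Δcwf12* against 6 and 3), and 9 remain without *gdt1*. SPAC186.04c, SPAC186.06, *ftm4*, *grt1* and SPAC750.01 did not differ past the threshold.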

How the data were processed

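Polyadenylated RNA of 6 cultures was sequenced as paired reads with a stranded kit. The authors deposited raw counts per gene, whole numbers without normalization, which the submitters' processing notes and the methods trace to Trimmomatic, STAR, the ASM294v2 genome, HTSeq and DESeq2. The feature type, strand setting, annotation release and treatment of reads with several places are not given in the sources used here. Names, biotypes, introns and gene order came from the RefSeq ASM294v3 annotation, which matched 6846 of 7268 identifiers, and sequences with their coordinates from the ASM294v3 genome.

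Counts were analysed with edgeR 4.0.16 in R 4.3.3: filterByExpr by strain, TMM factors, a single quasi-likelihood fit to the 6 libraries by strain (common dispersion 0.00388), and Benjamini-Hochberg adjustment over 6018 genes. SE was taken from the log2 fold change and the F statistic. Library totals of 9113139 to 12054198 set the precision, and 95% intervals of count ratios cover counting error only. Genes named are the 15 largest and 15 smallest log2 fold changes among called coding genes with a mean of at least 10 counts in a strain and no overlap between strains, the 5 and 5 noncoding ones, of each gene list up to 4 members with the smallest adjusted p and the called members of lists described, *cwf12*, its neighbours and *saf5*, and the smallest p per bin of expression level, of 5 bins. Ribosomal protein and tRNA ligase genes were drawn by symbol and kept by annotated product. Members and lists were chosen with earlier results of these data known. Repeats were searched with blastn 2.17.0. The procedure was tested on simulated data. Alternatives were DESeq2 1.42.0, RLE factors, other filters, only the strains compared, a replicate block, each library left out, other thresholds, WT level per length and a narrower chromosome-end class. The result of 1 gene list is not reported here.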

Additional observations from a re-analysis of the deposited data

How the results depend on the processing

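With adjusted p alone and no fold minimum, the counts were 1532 genes higher and 1502 lower, 1067 and 1387 among protein-coding genes, 444 and 107 among SPNCRNA genes, and 87 and 79 at the chromosome ends. Within 25 coding genes of an end, 15 were higher and 25 lower. With at least 10 counts in every library, 23 chromosome-end genes were lower, since genes silent in a strain leave that test. Under the remaining alternatives these counts stayed within 1.5 times those given, and no gene was called in the opposite direction. DESeq2 called 397 genes higher, 395 of them shared with edgeR, and 157 lower, 147 of them shared. Leaving out each library gave 409 to 472 higher and 153 to 174 lower. The *cwf12* log2 fold change ranged from -4.15 to -4.03.

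The replicate numbers did not pair the samples: deviations of same-numbered libraries of *Δcwf12* and WT correlated at 0.0034. With the replicate block, 440 genes were higher, 436 of them shared, and 155 lower, all shared.

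With 2 cultures per strain, few reads on genes near silence and no stated strand or multiple-mapping rule, values of single low-count, antisense or repeated genes are the least certain. Fits that leave out a library assume that the lone culture varies like the others.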

Other observations

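Kinetochore genes, looked at after their values were seen, held 3 calls among 34 tested, with a median log2 fold change of -0.03. The shares were 5.88% higher and 2.94% lower, near the 7.31% and 2.64% over all genes. Over coding genes they were 3.31% and 1.78%. *cnp3*, the fission yeast CENP-C, had 802 and 707 counts in *Δcwf12*, against 3326 and 2775 in WT (log2 fold change -2.20, SE 0.10, adjusted p = 1.0e-08 in edgeR's quasi-likelihood test). *fta3*, a CENP-H-like subunit, had 6136 and 5283 counts in *Δcwf12*, against 1799 and 1835 in WT (1.47), and *dad3*, of the DASH complex, had 710 and 557, against 191 and 203 (1.5). All 3 genes carry introns, as do 2433 of the 4950 coding genes tested.

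Of 4 snoRNA identifiers that passed the filter, 3 were called higher in *Δcwf12* (75%) and 0 lower, against 7.31% and 2.64% over all genes. *snR36* had 140 and 120 counts in *Δcwf12*, against 21 and 31 in WT, and *snoR69* had 59 and 68, against 22 and 15. The third, *snR40*, had 16 and 24, against 3 and 10, and its call was lost in DESeq2 (adjusted p = 0.105), with only the strains compared (adjusted p = 0.0629), without *Δcwf12* replicate 2 (log2 fold change 0.98), without WT replicate 1 (log2 fold change 0.82) and under a minimum fold of 1.5. The libraries were made from polyadenylated RNA, and 53 snoRNA identifiers are in the table. Of 21 pseudogenes tested 5 were higher (23.8%) and 1 lower (4.76%), against 7.31% and 2.64% over all genes. They include *wtf3*, which is described above.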
